A study of Xenopus laevis with 18 samples.

Results

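Of 31357 gene models of the African clawed frog, Xenopus laevis, in the deposited table, 91 were taken as a set. As deposited, they were present at stage 0 within 3-fold of their blastula level. They were still present at the end of gastrulation and had nearly gone by the tailbud stages. The members were chosen by a rule on their measured levels. B, the mean TPM of stages 8, 8.5 and 9, had to be 50 or more, stage 0 had to lie within 3-fold of B, stage 12 had to hold at least 30% of B, and the mean of stages 23, 26, 30 and 33 had to be at most 10% of B. TPM is the share of a model among all transcripts of a library, scaled to a total of 1000000. The values at those 9 stages are therefore a description and were not tested, whereas stages 2, 6, 6.5, 7, 10, 14, 16, 18 and 20 were not used by the rule.

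The data were poly(A)+ RNA from whole embryos of the J strain, raised without treatment other than a buffered saline with gentamycin, in 18 libraries, each from a different stage of the Nieuwkoop-Faber series, by which Xenopus development is staged. Stages 2 to 7 are called cleavage here (n = 4 libraries), 8 to 9 blastula (n = 3), 10 and 12 gastrula (n = 2), 14 to 20 neurula (n = 4) and 23 to 33 tailbud (n = 4). Stages within a period are successive time points rather than replicates, and the labels do not say how many embryos or clutches stand behind a library. The identifiers of the models are not paired with gene symbols in the table, and 0 of the 31357 matched the reference list of names, so models are given by identifier and no function or sequence is attached to them. The frog's genome holds many near-identical gene copies, and TPM of such copies cannot be separated here.

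A frog egg carries a store of maternal mRNA that directs the first cell divisions while the embryo's own genome is nearly silent. The length of the poly(A) tail decides whether much of this store is translated, and tails are lengthened or shortened in the cytoplasm without new transcription. After the mid-blastula transition, when zygotic transcription starts broadly, many maternal mRNAs are degraded, each at its own pace, and their place is taken by transcripts of the embryo. In poly(A)-selected RNA a shorter tail and fewer molecules cannot be told apart, and in whole embryos neither can fewer cells of a type and less RNA per cell.

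TPM keeps no sequencing depth, so counting errors cannot be given. Spike-in RNAs were taken as shares of the spike-in total, as deposited. Over the 18 libraries, 37 well-measured ones varied with a median SD of 0.31 on the log2 scale (range 0.17 to 0.75). That SD also holds a division of the spike-in entries by class from stage 6 on, which is inferred from the values. It is thus not a measure of library error alone. A pair of gene models outside the set, called the on/off pair here, took 21.0%, 43.0%, 19.1%, 36.9% and 3.84% of the total in the libraries of stages 2, 6, 8.5, 10 and 30. In the other 13 libraries both were listed at 0, so every other model is lowered by that share in those 5. Values are therefore given as deposited and, where it matters, after rescaling each library to the same total without this pair and without spike-ins. The columns of stages 0, 20, 23, 26, 30 and 33 carry a suffix, rr, that the labels do not explain. In the libraries of stages 0, 18, 20 and 33, respectively 10966, 9322, 6491 and 3277 models had a value of 0.

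The members ranged in B from 50.6 to 3310.1 TPM, with a median of 104 TPM. B was under 100 TPM in 43 of the 91 and at 500 TPM or more in 10. Their sum, as a share of all gene models other than the on/off pair, was 3.05% in the stage 0 library, 2.59%, 1.51%, 2.41% and 2.39% in the cleavage libraries of stages 2, 6, 6.5 and 7, 2.39% by stage 9 and 2.29% by stage 10. The stage 6 library was thus low for the members also with the pair left out, though not for them alone. From stage 2 to stage 6 the median log2 step after rescaling was -0.646 over the members. Over all models averaging 10 TPM or more it was -0.439. In the libraries of stages 12, 14, 20 and 33 the members' share was 1.09%, 0.507%, 0.246% and 0.0740%. The most abundant member held 14.9% of the members' sum at stage 0 and 0.679% at stage 33. At the limits of the rule, the members closest inside had a B of 50.6 TPM, stage 0 at 33.4% of B, stage 12 at 30.1% of B and a tailbud mean of 9.86% of B, and the models closest outside had 48.5 TPM, 32.6%, 29.7% and 10.3%. The upper limit at stage 0 was less crowded, with 248% of B as the highest member and 302% as the closest model outside. Many models failed a single condition: 302 for stage 12, 2086 for the tailbud mean, 146 for B, 37 for the lower and 2 for the upper limit at stage 0.

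**Figure D1:**
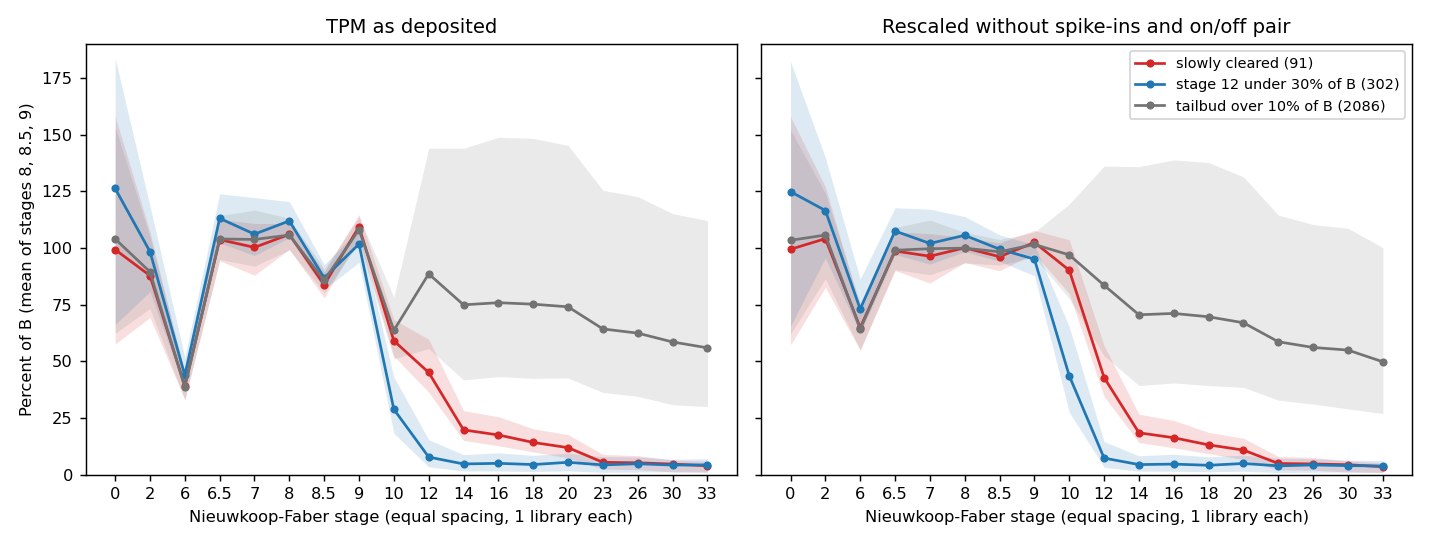
Median level (points and lines) and interquartile range (shading) as percent of B at each of 18 stages, for the 91 slowly cleared models and for models that failed the rule only at stage 12 (302) or only in the tailbud (2086), as deposited (left) and rescaled without spike-ins and the on/off pair (right). The 91 models step down between gastrulation and the tailbud, with a median of 45.1% of B at stage 12, 19.8% at stage 14 and 12.0% at stage 20 as deposited, while the dips at stages 6 and 10 shrink after rescaling.

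On deposited TPM the set stood near its blastula level up to stage 9, apart from stage 6, and then lower in steps. As deposited, the median over the 91 members was 99.3% of B in the stage 0 library, and in the cleavage libraries it was 87.9%, 39.2%, 104% and 100.3%. It then stood at 106%, 83.7% and 109% at the blastula stages 8, 8.5 and 9, which define B. The gastrula stages 10 and 12 had 59.1% and 45.1%, and the neurula stages 14, 16, 18 and 20 had 19.8%, 17.6%, 14.3% and 12.0%. In the tailbud it was 5.50%, 5.30%, 4.72% and 3.97% at stages 23, 26, 30 and 33. The low values at stages 6 and 10 moved with the on/off pair. After rescaling the median was 64.9% at stage 6 and 90.2% at stage 10, close to the blastula level, and the drop lay between stages 10 and 12. With libraries scaled to their spike-in total, medians were 49.4%, 109%, 52.4%, 75.1% and 67.3% at stages 0, 2, 6, 6.5 and 7. With libraries centred on the median of the gene models above 0 in every library (median-of-ratios scaling), they were 221%, 127%, 104%, 105% and 101%, and 141% at stage 10. Stage 0 and the blastula enter the rule, so their nearness as deposited is partly set by it.

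After stage 10, large steps stood on either side of the neurula. On the log2(TPM + 1) scale, the median step from stage 12 to stage 14 was -1.17 over the members, against -0.03 over all models averaging 10 TPM or more, and 90 of the 91 members were lower at stage 14, 56 of them by more than 2-fold. The next 3 steps were smaller, with medians of -0.20, -0.39 and -0.33 for stages 14 to 16, 16 to 18 and 18 to 20. The step from stage 20 to stage 23 was again large, with a median of -0.95 against -0.15 over all models, and 44 members were lower by more than 2-fold. From stage 23 on the medians were -0.11, -0.33 and -0.14. Steps are between single libraries at unevenly spaced stages, so their sizes are not rates, and the rule itself asks for a fall between stage 12 and the tailbud. After rescaling, a further step of -1.01 stood between stages 10 and 12, where the deposited values gave -0.33.

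On deposited TPM most members crossed 50% of B by stage 14, and 10% of B at stage 14 or later. The latter is set by the rule, which asks for at least 30% of B at stage 12. The former depended on the scaling. At stage 12, 55 members were at or under 50% of B as deposited, 0 with median-of-ratios and 69 with spike-in scaling. At stage 14 the counts were 84, 49 and 84. As deposited, the first stage from which a member stayed at or under 50% of B was stage 10 for 14 members, stage 12 for 41 and stage 14 for 29. It was stages 16, 18 and 20 for 3, 3 and 1. After rescaling these counts were 2, 59, 23, 3, 3 and 1, with most members at stage 12. The 10% level was reached for good by 4, 6, 11 and 9 members at stages 14, 16, 18 and 20, and by 34, 9 and 12 members at stages 23, 26 and 30. The other 6 were above 10% of B at the last stage although their tailbud mean was not.

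**Figure D2:**
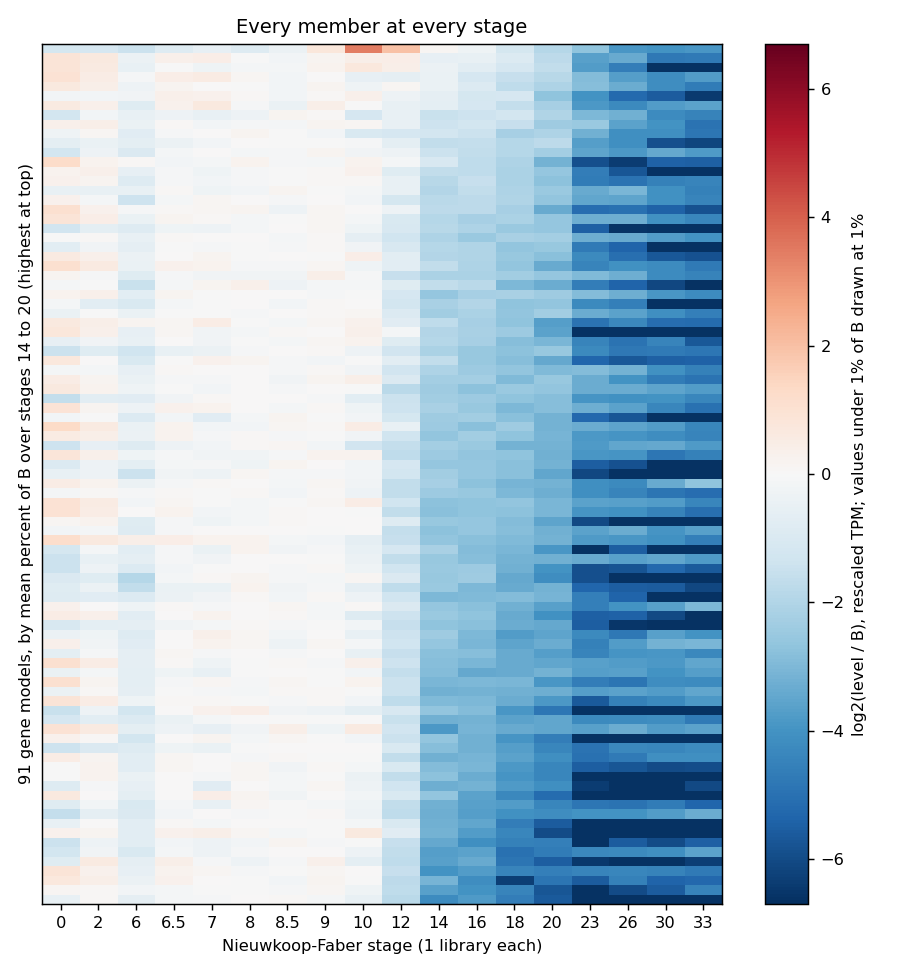
Level of each of the 91 models (rows, ordered by their mean percent of B over stages 14 to 20) at each of 18 stages (columns), as log2 of the level over B in TPM rescaled without spike-ins and the on/off pair. White is the blastula level, blue lower and red higher. Rows differ in colour at stage 0, are mostly pale blue at stage 6, turn blue by stage 12, where 61 of 91 are at or under 50% of B, and are darker from stage 14 on, and the top row, with a red cell at stage 10, is XeXenL6RMv10049277m.

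The most abundant member was XeXenL6RMv10046212m, with a B of 3310.1 TPM. It stood at 4034 TPM at stage 0, at 3023, 843, 3614 and 3879.7 TPM at stages 2, 6, 6.5 and 7, and at 3198, 3223 and 3509 TPM in the blastula. It was at 1920.4 TPM at stage 10 and 1308 TPM at stage 12, then at 573, 387, 231 and 148 TPM at stages 14, 16, 18 and 20 and at 33.6, 33.2, 12.7 and 4.96 TPM in the tailbud. Apart from the drop at stage 6 its level was high up to stage 9, and from there each library was below the one before it, with the 4 neurula libraries below the 4 cleavage libraries. Its neurula mean was lower than its cleavage mean, with a change of -3.04 ± 0.56 (SE) on the log2(TPM + 1) scale (limma adjusted p = 0.00588), and its slope within the neurula was -0.66 ± 0.35 per sampled stage (limma adjusted p = 0.526). The next most abundant, XeXenL6RMv10003525m, had a B of 1105 TPM and differed in its start, with 635 TPM at stage 0, 812, 327, 1057 and 816 TPM in cleavage and 1293 TPM at stage 8. It kept 367 TPM at stage 12, stood at 124, 95.7, 90.2 and 59.0 TPM in the neurula, and was between 31.3 and 45.0 TPM in the 4 tailbud libraries. Its neurula mean was also lower than its cleavage mean (log2 change -2.94 ± 0.41, limma adjusted p = 0.00224). For both members the rule fixes the levels before, between and after these stages. A lower neurula is therefore close to what their choice sets, and nothing is read from the p-values of these changes.

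The slope within the neurula was fitted in libraries the rule did not use. Since the rule asks for at least 30% of B at stage 12 and at most 10% in the tailbud, the stages between them bridge a drop, so a negative slope is close to what the choice of members sets and its sign and order are given as a description. A limma fit to those 9 libraries gave each of 23880 models, all 91 members among them, a mean and a slope over sampling order in cleavage and in the neurula. The neurula slope was below 0 in 89 of the 91 members, with a median of -0.28 on the log2(TPM + 1) scale per sampled stage (range -0.83 to 0.10), against a median of 0.10 over all models tested. With a median SE of 0.22 no single slope passed: limma called 0 members lower and 0 higher, with 10 members at an unadjusted p under 0.05. In the same fit limma called 0.155% of all models tested lower and 2.55% higher, with 3479 of 23880 at an unadjusted p under 0.05. The members' SE rests on the scatter in cleavage and neurula together, so the low stage 6 library enters it. Without stage 6, limma had 62 members at an unadjusted p under 0.05 and called 15 lower. Of all 23880 models, that fit had 6239 at an unadjusted p under 0.05 (limma), with 63 called lower and 468 higher. By order alone, 45 members (49.5%) were lower at each next stage from 14 to 20, as were 3.97% of all models tested and 5.86% of those averaging 10 TPM or more. From stage 14 to stage 20 the median member kept 56.3% of its TPM, with a range from 14.5% to 134%, and 87 of the 91 were lower at stage 20.

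The direction within the neurula depended on the scaling. Median-of-ratios scaling centres the libraries on the median of the gene models above 0 in every library. With it the members' median slope was -0.39 and 41 of 91 were called lower, and with quantile normalization it was -0.36 with 28 called lower. Rescaled without spike-ins and the on/off pair it was -0.30 with 6 called lower, and without stage 6, the library with the largest share in the on/off pair, 15 were called lower at an unchanged median of -0.28. Over all models tested, the counts called lower were 509 of 23880, 292 of 23880, 97 of 23878 and 63 of 23880, in the same order. With the libraries scaled to their spike-in total the median slope turned to 0.08, with 32 of 91 slopes below 0 and 0 called in either direction (limma, 8 at an unadjusted p under 0.05). Of all 23880 models, 12367 were at an unadjusted p under 0.05 with that scaling (limma), with 55 called lower and 6453 higher. The spike-in share of the total fell from 6.41% at stage 14 to 2.80% at stage 20, and all models tested had a median slope of 0.40 on that scale. The members' medians on that scale were 16.7%, 16.7%, 16.2% and 23.5% of B at stages 14, 16, 18 and 20, so the stage 20 library stood above the other 3. Under each of the 5 scalings the members' median slope was below that of all models tested. The rule asks for a fall between the end of gastrulation and the tailbud, on either side of the neurula. This order is therefore close to what the choice of members sets, and nothing is read from it. How much spike-in was added per embryo or per amount of RNA was not used here. Stage 20 is also the only neurula library with the suffix rr. Without it the median slope was -0.26, with 82 of 91 slopes below 0 and 0 called (limma, 0 at an unadjusted p under 0.05). Over all models, the fit without stage 20 had 2283 of 23880 at an unadjusted p under 0.05 (limma), with 38 called lower and 269 higher. In that fit 8260 of the 23880 slopes were below 0.

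**Figure D3:**
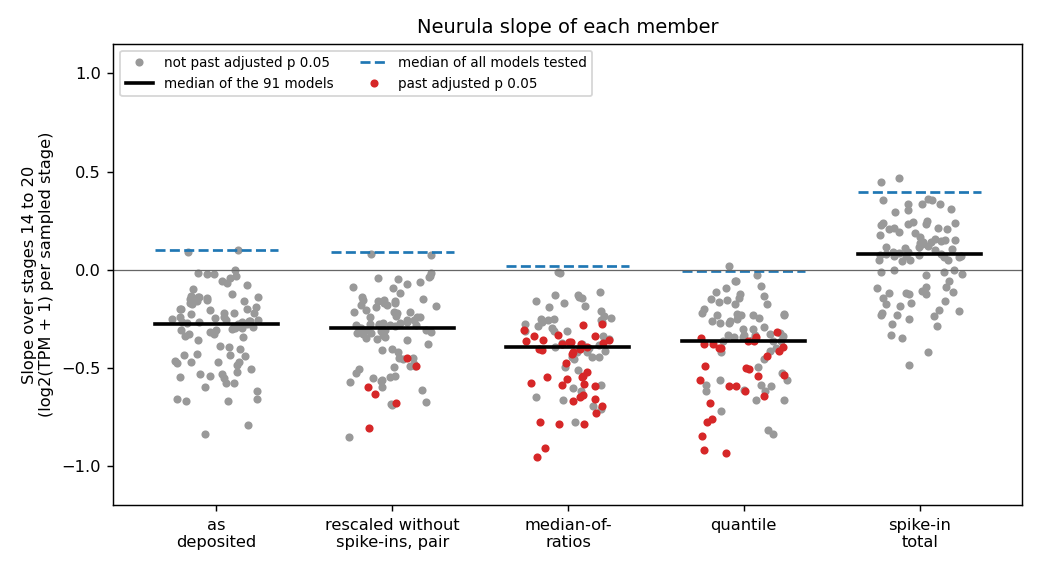
Slope over stages 14, 16, 18 and 20 on the log2(TPM + 1) scale per sampled stage, 1 point for each of the 91 models, under 5 scalings. Black bars are the members' median and dashed blue bars the median of all models tested, red points passed an adjusted p of 0.05, and the horizontal spread of the points is arbitrary. Medians lie between -0.39 and -0.28 under 4 scalings and at 0.08 with spike-in scaling.

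The most negative neurula slope was that of XeXenL6RMv10049730m, which stood at 387 TPM at stage 0, at 299.6, 116, 398 and 435 TPM in cleavage and at 324 TPM at stage 10. It was at 196 TPM at stage 12 and 37.9 TPM at stage 14, and at 25.3, 16.5 and 5.48 TPM at stages 16, 18 and 20, then between 1.5 and 2.61 TPM in the tailbud. Each neurula library was below the one before it and below each cleavage library. Its slope of -0.83 ± 0.28 per sampled stage did not pass as deposited (limma adjusted p = 0.268). It passed with median-of-ratios scaling (-0.95, limma adjusted p = 0.0255), quantile normalization (-0.93, limma adjusted p = 0.0361) and all 18 libraries in the fit (-0.83, limma adjusted p = 0.0417), and without stage 6 (-0.83, limma adjusted p = 0.0492), within a range of adjusted p from 0.0255 to 1 over 21 alternatives. The fit to all 18 libraries takes part of its error from libraries that the rule used. XeXenL6RMv10049730m was also named for having the most negative slope, and a falling neurula is close to what the choice of members sets. Nothing is therefore read from the p-values of its slope under any of these alternatives. At the other end, XeXenL6RMv10020780m was at 142 TPM at stage 12, at 23.6, 40.4, 34.0 and 31.8 TPM in the neurula and at 28.9, 35.5, 25.8 and 30.3 TPM in the tailbud. From stage 14 on it was far below its earlier level, and its neurula and tailbud libraries overlap. Its slope of 0.10 ± 0.26 did not pass (limma adjusted p = 0.982), and it was -0.01 with median-of-ratios scaling and -0.17 without stage 14.

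The neurula was lower than cleavage for nearly the whole set. Since the rule fixes the levels before, between and after these stages, a lower neurula is close to what the choice of members sets, and nothing is read from the count alone. Of the 91 members, 85 (93.4%) were called lower in the neurula and 0 higher, against 31.3% and 27.5% of all models tested. The median change was -2.25 on the log2(TPM + 1) scale (range -3.92 to 0.50), beside a median of -0.06 over all models. In 74 members each neurula library was below each cleavage library, as in 26% of all models tested. Without the low library of stage 6, 90 members were called lower. Counts were 70 without stage 7 and 68 without stage 20, the lowest over all libraries left out. Over all 23880 models, the counts called lower in these fits were 10549, 5487 and 6225, in the same order.

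The largest falls were those of XeXenL6RMv10049730m, at -3.92 ± 0.44 (limma adjusted p = 0.000994), and XeXenL6RMv10034868m, at -3.82 ± 0.46 (limma adjusted p = 0.00134). A fall is close to what the choice of members sets, so nothing is read from these p-values. XeXenL6RMv10034868m was a low member, at 90.1 TPM at stage 0, at 60.0, 25.4, 70.7 and 59.0 TPM in cleavage, at 35.3 TPM at stage 10 and at 17.2 TPM at stage 12. It was at 6.63, 3.3, 0.74 and 2.04 TPM in the neurula and between 1.27 and 2.69 TPM in the tailbud, so that from stage 18 on it stood at or near its lowest level. The lowest neurula levels relative to B were those of XeXenL6RMv10054880m, with a mean of 5.06% of B, and XeXenL6RMv10007554m, with 5.57%. XeXenL6RMv10054880m had a B of 96.7 TPM and was at 44.9 and 29.1 TPM in the gastrula, at 5.58, 7.58, 4.26 and 2.17 TPM in the neurula and at 0.11 TPM at stage 33. XeXenL6RMv10007554m had a B of 58.0 TPM and was at 30.6 and 18.7 TPM in the gastrula, at 5.01, 3.82, 2.92 and 1.18 TPM in the neurula, and at 0.44 TPM at stage 23 but 2.89 TPM at stage 33. Both lie just inside the limit at stage 12, with 30.1% and 32.3% of B.

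**Figure D4:**
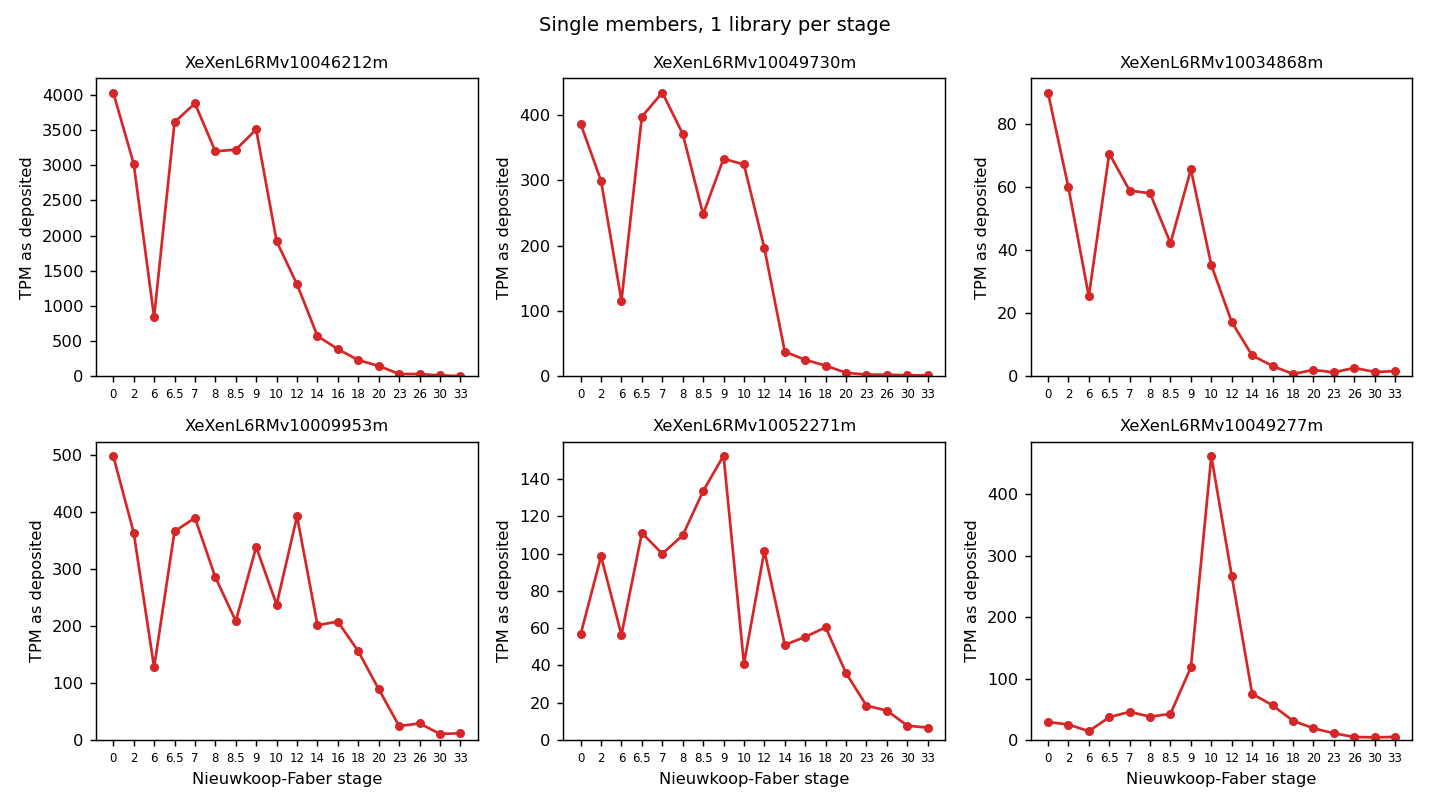
TPM as deposited at each of 18 stages (1 library each) for 6 single members, each on its own axis from 0. The 3 models of the upper row run from their blastula level down to the neurula after stage 9 or 10, XeXenL6RMv10009953m and XeXenL6RMv10052271m keep a raised level up to stage 18, and XeXenL6RMv10049277m peaks at 462 TPM at stage 10.

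The other 6 members did not pass, with neurula means from 26.6% to 68.6% of B. XeXenL6RMv10009953m, at 58.9% of B in the neurula, stood at 499 TPM at stage 0, at 364, 128, 366 and 390.2 TPM in cleavage, at 238 TPM at stage 10 and at 393 TPM at stage 12. It was still at 202, 208 and 156 TPM at stages 14, 16 and 18, reached 89.3 TPM at stage 20 and lay between 10.8 and 29.1 TPM in the tailbud. Its neurula and cleavage libraries overlap, and the change of -0.87 ± 0.44 did not pass (limma adjusted p = 0.137). XeXenL6RMv10014534m ran alike, with 551 TPM at stage 0, 324 TPM at stage 10, 424 TPM at stage 12 and 245, 199, 152 and 105 TPM in the neurula, then 25.2, 13.4, 1.93 and 1.24 TPM in the tailbud. Its change was -0.59 ± 0.39 (limma adjusted p = 0.243). These and XeXenL6RMv10012788m, chosen after its values were seen, were at 141%, 139% and 115% of B at stage 12, so the end of gastrulation was not a low point for them. XeXenL6RMv10012788m was at 83.1 TPM at stage 12, at 56.2, 40.1, 24.2 and 18.8 TPM in the neurula and at 3.11 TPM at stage 33.

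The course of XeXenL6RMv10049277m went furthest from the description of a maternal store that is slowly cleared. It was not alone above B after the blastula. At stage 10, 4 of the 91 members were above B as deposited and 30 after rescaling, and at stage 12 there were 4 on either scale. XeXenL6RMv10049277m stood at 29.4 TPM at stage 0, at 25.2, 14.3, 37.1 and 45.9 TPM in cleavage and at 38.0 and 42.6 TPM at stages 8 and 8.5, then at 119 TPM at stage 9 and 462 TPM at stage 10. It was at 267 TPM at stage 12, at 75.2, 56.5, 31.3 and 19.1 TPM in the neurula and between 4.34 and 10.9 TPM in the tailbud. Stage 10 was 697% of B, although the on/off pair lowers every model in that library, and the next highest member stood at 106%. Its neurula and cleavage libraries overlap, with a change of 0.50 ± 0.30 as deposited (limma adjusted p = 0.205). It was called higher in the neurula with median-of-ratios scaling (1.12, limma adjusted p = 0.000124), quantile normalization (0.81, limma adjusted p = 0.000483) and spike-in scaling (0.78, limma adjusted p = 0.0201), within a range of adjusted p from 0.000124 to 0.677 over 21 alternatives. Such calls were common, with 9688, 7997 and 7789 of all 23880 models called higher under these scalings, in the same order.

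At the onset of gastrulation most members lay close together. At stage 10 the middle 50% of the members lay between 52.3% and 68.4% of B as deposited, and between 79.9% and 104% after rescaling. The lowest were XeXenL6RMv10054307m, at 27.2% of B as deposited and 41.1% rescaled, and XeXenL6RMv10052271m, at 31.0% and 46.6%. XeXenL6RMv10054307m stood at 62.9, 53.6 and 53.1 TPM in the blastula, at 15.4 TPM at stage 10 and 19.9 TPM at stage 12, and at 12.6, 10.7, 6.89 and 6.86 TPM in the neurula. XeXenL6RMv10052271m had a notch at stage 10: it stood at 109.8 TPM at stage 8 and 152 TPM at stage 9, was at 40.8 TPM at stage 10 and 101 TPM at stage 12, and stayed at 51.0, 55.3, 60.4 and 35.8 TPM in the neurula. A higher value at stage 12 than at stage 10 was seen in 22 members as deposited and in 3 after rescaling, which were XeXenL6RMv10052271m, XeXenL6RMv10009953m and XeXenL6RMv10012788m. The notch of XeXenL6RMv10052271m was thus also there without the on/off pair, in a single library. Its change from cleavage to neurula did not pass (-0.82 ± 0.29, limma adjusted p = 0.0547).

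Before the mid-blastula transition the members came from either side of their later level on deposited TPM, and this depended on the scaling. With median-of-ratios scaling 76 of the 91 were above B at stage 0, with a median of 221% of B over the members. With spike-in scaling 7 were above B, with a median of 49.4%. The values that follow are as deposited. At stage 0, 44 of the 91 were above B, with a median of 158.5% of B, and 47 were at or under it, with a median of 58.0%. By stage 2 the medians of these groups were 107% and 71.2%, at stage 6.5 111% and 95.6%, and at stage 7 107% and 97.2%, so the gap was smaller by stage 7. The rule admits both kinds since it allows a 3-fold range at stage 0, and the split was made on stage 0 itself, so no test is given. With values divided by the blastula mean B, a gap that shrinks toward the blastula is close to what these choices set. Later the group that started above B had the higher median at each stage from 9 on, by margins that varied. The medians were 65.8% and 54.8% of B at stage 10, 49.5% and 42.9% at stage 12, 19.9% and 18.8% at stage 14, 16.7% and 13.0% at stage 18, and 12.2% and 11.9% at stage 20. In the tailbud they were 6.05% and 5.05% at stage 23 and 4.49% and 2.52% at stage 33. Across the 91 members, Spearman's rho between percent of B at stages 0 and 20 was 0.11, at stages 12 and 14 0.70 and at stages 14 and 20 0.75. These are descriptions across models that share libraries and the same B. Between B itself and percent of B, rho was -0.02 at stage 12 and -0.06 at stage 14.

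Within cleavage no trend passed. The slope over stages 2, 6, 6.5 and 7 had a median of 0.21 per sampled stage on the log2(TPM + 1) scale over the members and 0.17 over all models tested. Limma called 0 members and 0% of all models tested in either direction, with 1 member and 2881 models in all at an unadjusted p under 0.05. The sign depended on the scaling, and the members' median was 0.04 after rescaling without the on/off pair, -0.08 with median-of-ratios scaling and -0.14 with spike-in scaling. The most positive slope was that of XeXenL6RMv10000287m, at 82.9, 27.4, 165 and 190.3 TPM in cleavage and 208 TPM at stage 8 (slope 0.61 ± 0.35, limma adjusted p = 0.536). Its level at stage 0 was 88.8 TPM, near that of stage 2, and it was at 31.4, 35.9, 17.1 and 10.6 TPM in the neurula. The most negative was that of XeXenL6RMv10020780m, at 646 TPM at stage 0 and 424, 125, 269.9 and 227 TPM in cleavage (slope -0.16 ± 0.26, limma adjusted p = 0.934), and the slope was 0.43 without stage 2.

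In the tailbud the remnants differed. None of the 91 was listed at 0 at any stage. At stage 33, 19 members were under 1 TPM and 23 were at 10 TPM or more. The median member kept 58.9% of its stage 23 level at stage 33, but 25 members were higher at stage 33 than at stage 23, 16 of them at 5 TPM or more. The direction within the tailbud turned with spike-in scaling, where the members' median was 9.49% of B at stage 23 and 16.8% at stage 33, with 75 of 91 members higher at stage 26 than at stage 23 and 80 higher at stage 33 than at stage 30. These rises were not particular to the members. With that scaling, the median log2 steps were 0.412 and 0.648 over the members. Over all models averaging 10 TPM or more they were 0.585 and 0.898. As deposited, the largest ratio of stage 33 to stage 23 among those 16, named after the values were seen, was that of XeXenL6RMv10048401m, from 2.14 TPM at stage 23 to 4.64, 5.37 and 7.55 TPM at stages 26, 30 and 33, after 7.25 TPM at stage 20 and a B of 96.4 TPM. All 4 tailbud libraries carry the suffix rr and each stands alone.

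The 302 models that failed only the stage 12 condition were lower earlier, as that condition sets. They had a median of 28.9% of B at stage 10 (43.7% rescaled) and 7.82% at stage 12, and between 4.37% and 5.51% in the libraries of stages 14, 20 and 33. The 91 members reached that level at stage 23, with 5.50%. The neurula slope was below 0 in 133 of the 302, with a median of 0.02, against 89 of 91 and -0.28 in the set. In the 2086 models that failed only the tailbud condition it was below 0 in 983, with a median of 0.01, and their median level was 88.6% of B at stage 12, 74.1% at stage 20 and 56.0% at stage 33. These counts also moved with the scaling. With median-of-ratios scaling 193 of the 302 and 1628 of the 2086 slopes were below 0, with quantile normalization 224 and 1247, and with spike-in scaling 31 and 32, against 91, 90 and 32 of the 91 members. The difference between the sets was not tested. The sets are defined by their levels at stage 12 and in the tailbud, on either side of the neurula. A contrast between their neurula slopes is therefore close to what the definitions set. In the cleavage slope the 3 sets had similar medians of 0.21, 0.18 and 0.21.

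**Figure D5:**
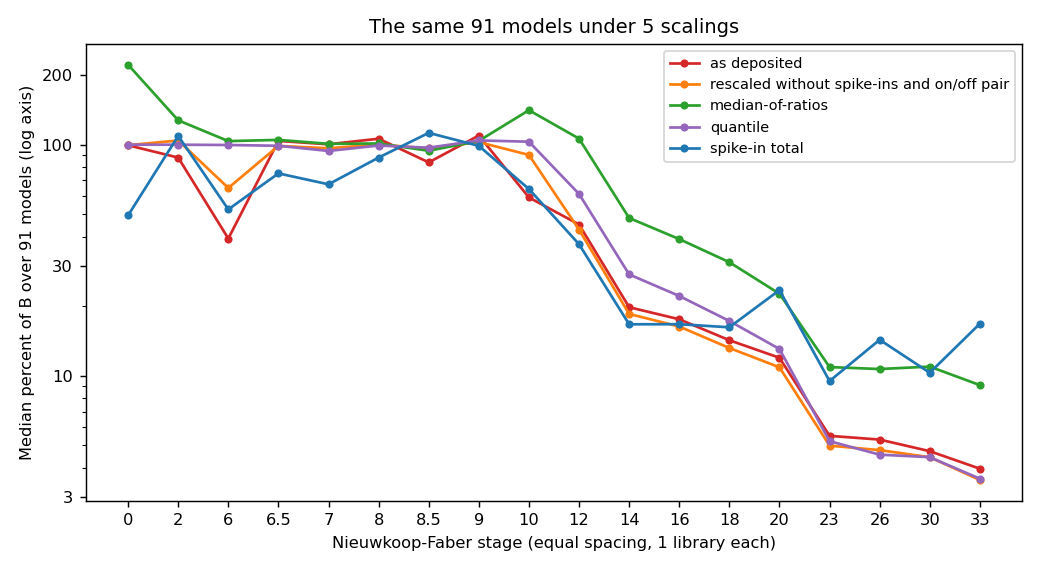
Median percent of B over the 91 models at each of 18 stages under 5 scalings, on a log axis. Between stages 6.5 and 9 the lines lie near 100%, other than that of spike-in scaling, at stage 12 they spread from 37.1% with spike-in scaling to 106% with median-of-ratios scaling, and at stage 33 from 3.54% to 16.8%.

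How far the set counts as cleared slowly depended on the scaling. The plot of the members under 5 scalings shows medians at stage 12 of 45.1% of B as deposited, 42.9% rescaled without spike-ins and the on/off pair, 61.2% with quantile normalization, 106% with median-of-ratios scaling and 37.1% with spike-in scaling. At stage 20 the medians in the same order were 12.0%, 10.9%, 13.1%, 22.6% and 23.5%, and at stage 33 they were 3.97%, 3.54%, 3.59%, 9.12% and 16.8%. The medians at stage 33 were below the blastula level under all 5 scalings, by amounts that differed between them. The same 91 models were chosen for a low tailbud as deposited, so this order is close to what the choice of members sets. Applied after rescaling without spike-ins and the pair, the rule found 102 models, with 87 shared (95.6% of the 91 members, 85.3% of the 102). With quantile normalization it found 65 with 47 shared (51.6% and 72.3%), with median-of-ratios scaling 36 with 17 shared (18.7% and 47.2%), and with spike-in scaling 19 with 18 shared (19.8% and 94.7%).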

How the data were processed

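Poly(A)+ RNA of 18 whole-embryo libraries was captured on oligo(dT) beads and amplified for 10 cycles, per the labels' protocols. The authors deposited 1 table of TPM with 31357 gene models and 88 ERCC spike-in entries. The submitters' processing notes list Bowtie, CASAVA 1.8.2, RSEM and Trimmomatic, with neither their roles nor a genome build. From stage 6 on, the decimals show spike-in entries divided by class after the TPM was made (22 by 0.5, 21 by 1, 22 by 0.67 and 22 by 4), which is an inference from the values; columns sum to at most 1010293.9. Depth is unknown.

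Members were chosen by the rule on deposited TPM, without spike-ins. The members, lists and tests were chosen with earlier results of these data known. The 23880 models that reached 1 TPM in 2 or more libraries were fitted on the log2(TPM + 1) scale (R 4.3.3, limma 3.58.1, variance trend), to the 9 libraries outside the rule (a mean and a slope over sampling order in cleavage and neurula, and a term for stage 10; 4 residual degrees of freedom). Tests were two-sided with Benjamini-Hochberg adjustment at 0.05 over all 23880 models, and p-values measure the spread between libraries, which holds development as well as error. Tested on simulated data, the fit recovered slope sizes but called few of the smaller slopes, so a slope that was not called is not shown to be absent. A change on the log2(TPM + 1) scale understates that of low models. Named models are the 2 with the highest B, those with the largest change in either direction in each test (past the threshold where any were), and the 2 highest and 2 lowest in the neurula and at stage 10 as percent of B. Alternatives were other pseudocounts, filters, scalings, fits and leaving out each library.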

Additional observations from a re-analysis of the deposited data

Results flagged for a closer look

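Of 42 groups of 4 libraries examined (13 named models and the members' median, in cleavage, neurula and tailbud), 2 held a library far from the others by Dixon's test, and chance gives about 5% of groups. In cleavage, XeXenL6RMv10009953m stood at 127.7 TPM at stage 6 against 364 to 390.2 TPM at stages 2, 6.5 and 7, in the library where the on/off pair took 43.0% of the total. This dip was not particular to the model. As deposited, all 91 members were lower at stage 6 than at stage 2, 58 of them by more than 2-fold, and all 91 were higher again at stage 6.5. In the tailbud, XeXenL6RMv10049277m stood at 10.9 TPM at stage 23 against 4.34 to 4.98 TPM at the 3 later stages. The part of the library in either was not tested.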

How the results depend on the processing

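The count of members called lower in the neurula slope, 0 as deposited, was 41 with median-of-ratios scaling, 28 with quantile normalization, 6 rescaled without spike-ins and the on/off pair and 2 with all 18 libraries, those of the rule among them, in the fit, and it ranged from 0 to 15 with each of the 9 libraries left out, the 15 being without stage 6. Over all models tested, 37 were called lower as deposited, then 509, 292, 97 and 40 in the same order, and 63 without stage 6. The members' median neurula slope reversed from -0.28 to 0.08 with spike-in scaling, also with the spike-ins as deposited (0.08), a version added after the data were seen. It ranged from -0.35 to -0.26 with a library left out. The median cleavage slope, 0.21 as deposited, was reversed at -0.08 with median-of-ratios scaling, -0.03 with quantile normalization, -0.14 and -0.19 with the spike-in scalings and -0.01 over stage number, and moved to 0.04 with rescaling without the pair. It ranged from 0.07 without stage 6 to 0.66 without stage 2, and was 0.13 without stage 7. From cleavage to neurula, 68 to 90 members were called lower with a library left out, and the count called higher, 0 as deposited, was 1 under median-of-ratios, quantile and both spike-in scalings. Over all 23880 models, 5487 to 10549 were called lower with a library left out. Called higher were 6559 of the 23880 as deposited, and 9688, 7997, 7789 and 7435 under those scalings, in the same order. The slope of XeXenL6RMv10020780m in the neurula reversed to -0.01 with median-of-ratios scaling and to -0.17 without stage 14, and in cleavage to 0.43 without stage 2.

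The rule found 36 models with median-of-ratios scaling and 19 and 20 with the spike-in scalings, against 91. The members' median percent of B, 39.2 at stage 6 and 59.1 at stage 10 as deposited, was 104 and 141 with median-of-ratios scaling, 64.9 and 90.2 rescaled without the pair, and 99.6 and 103 with quantile normalization. With median-of-ratios scaling it was 106, 48.1, 22.6 and 9.12 for stages 12, 14, 20 and 33. With the spike-in scalings it was 23.5 and 23.0 at stage 20 and 16.8 and 16.2 at stage 33. The cause of these differences was not tested, beyond the share of the on/off pair, which the rescaling removes. No paired analysis was possible because the labels carry no replicate numbers and each stage has 1 library. With unknown depth and 1 library per stage, single values have no error of their own.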
